A study of Mus musculus with 4 samples.

Results

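The genes described here are the variable (V) genes of the immunoglobulin light chains, kappa (Igkv) and lambda (Iglv), read in plasma cells found among sorted intestinal cells. All gene columns whose name starts with Igkv or Iglv were taken, which gave 147 of 25031 genes in either table: 144 kappa and 3 lambda genes. The table of replicate 2 holds 112 of them. Plasma cells were taken as cells with at least 3 unique molecular identifiers (UMIs, counted molecules) summed over Mzb1, Derl3 and Tnfrsf17, 3 genes of the antibody-secreting state. This gate kept 451 of 6609 tagged cells, 424 of 2077 in replicate 1 (20.4%, exact Clopper-Pearson 95% interval 18.7 to 22.2) and 27 of 4532 in replicate 2 (0.596%, 0.393 to 0.866). All intervals cover counting error only.

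The cells came from a sort of group 3 innate lymphoid cells (ILC3s) out of the lamina propria of the small gut, from mice aged 6 to 8 weeks that carry floxed Cxxc1 and a Cre transgene. The 4 labelled samples are 2 replicates with 2 libraries each, and each replicate is 1 sample tag in 1 BD Rhapsody capture. All samples are 1 group, Cxxc1-deficient by label, with no Cxxc1-sufficient cells analysed here, so the values below describe these cells and compare no genotypes.

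A light chain V gene is joined to a J gene by recombination in developing B cells, and the joined segment is spliced to the constant gene, Igkc for kappa or an Iglc gene for lambda. A B cell normally keeps 1 productive light chain, so each plasma cell makes large amounts of mRNA from 1 V gene. Plasma cells of the gut lamina propria mainly secrete IgA, which the J chain links into dimers.

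The sequences of the 4 most used V genes are given first, because the cell assignments rest on telling such exons apart. Each is the V exon in GENCODE vM21 on GRCm38, read 5′ to 3′ on the gene's strand, and is coding sequence apart from the germline end that is joined to J. Capitals run from the last in-frame cysteine codon to the end of the exon, the germline part of the third complementarity-determining region (CDR3). Igkv10-96 is at chr6:68631963-68632260 on the minus strand, and Igkv12-46 at chr6:69764523-69764820, also minus. The last 300 bases of the exon are shown for Igkv1-117 (chr6:68121528-68121827, plus strand) and for Iglv1 (chr16:19085017-19085316, minus strand).
Igkv10-96: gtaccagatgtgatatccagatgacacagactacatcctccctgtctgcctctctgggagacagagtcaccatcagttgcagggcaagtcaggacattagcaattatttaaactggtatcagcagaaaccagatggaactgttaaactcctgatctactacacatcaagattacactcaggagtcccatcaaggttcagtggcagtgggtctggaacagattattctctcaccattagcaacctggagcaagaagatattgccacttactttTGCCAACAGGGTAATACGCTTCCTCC
Igkv1-117: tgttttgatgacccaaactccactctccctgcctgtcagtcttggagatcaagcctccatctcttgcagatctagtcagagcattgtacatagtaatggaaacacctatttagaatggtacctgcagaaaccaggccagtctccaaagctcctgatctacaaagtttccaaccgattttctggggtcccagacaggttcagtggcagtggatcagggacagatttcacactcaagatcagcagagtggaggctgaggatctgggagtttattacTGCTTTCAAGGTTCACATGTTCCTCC
Igkv12-46: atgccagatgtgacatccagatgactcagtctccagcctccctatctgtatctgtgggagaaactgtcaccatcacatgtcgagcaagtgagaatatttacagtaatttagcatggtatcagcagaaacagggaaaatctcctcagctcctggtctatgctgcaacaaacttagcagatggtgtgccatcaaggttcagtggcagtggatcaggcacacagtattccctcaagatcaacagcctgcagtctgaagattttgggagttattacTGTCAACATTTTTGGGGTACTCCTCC
Iglv1: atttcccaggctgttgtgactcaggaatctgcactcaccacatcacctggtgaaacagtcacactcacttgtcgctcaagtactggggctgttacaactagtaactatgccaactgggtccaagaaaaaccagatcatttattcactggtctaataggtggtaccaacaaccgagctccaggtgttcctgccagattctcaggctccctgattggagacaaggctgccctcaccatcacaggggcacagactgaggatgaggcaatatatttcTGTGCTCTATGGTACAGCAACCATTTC
The capitals hold 26 bases in each of the 3 kappa genes and 27 bases in Iglv1.

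The other members of the Igkv10 family show how close neighbours can be. Below, capitals mark the bases that differ from Igkv10-96 at the same position of the 298-base exon. Igkv10-95 (chr6:68680551-68680848, plus strand) differs at 19 bases and shares 93.6% of them, and Igkv10-94 (chr6:68704508-68704805, minus strand) differs at 16 and shares 94.6%.
Igkv10-95: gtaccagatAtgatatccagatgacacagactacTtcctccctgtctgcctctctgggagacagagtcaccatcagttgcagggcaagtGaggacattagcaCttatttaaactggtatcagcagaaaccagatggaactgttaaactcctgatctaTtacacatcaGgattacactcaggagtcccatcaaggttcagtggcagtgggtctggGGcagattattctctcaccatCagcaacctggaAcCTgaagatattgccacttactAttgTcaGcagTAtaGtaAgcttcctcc
Igkv10-94: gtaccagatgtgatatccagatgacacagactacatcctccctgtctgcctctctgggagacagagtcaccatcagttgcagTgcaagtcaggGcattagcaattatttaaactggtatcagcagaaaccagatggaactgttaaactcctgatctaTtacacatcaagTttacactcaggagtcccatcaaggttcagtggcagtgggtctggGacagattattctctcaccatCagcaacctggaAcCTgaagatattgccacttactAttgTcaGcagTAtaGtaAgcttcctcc
Of the 102 V genes with a coding V exon in the annotation, 47 have another V exon more than 95% identical and 0 have one more than 99% identical. The closest exon to Igkv1-117 is Igkv1-110 (96.8%), to Iglv1 it is Iglv2 (96.4%), and to Igkv5-43 it is Igkv5-45 (99%). Where reads were split between such neighbours by the pipeline, usage of the single genes is uncertain. Within the 53 Igkv10-96 cells of replicate 1, 34 of 10384 V UMIs were given to Igkv10-94 and 24 to Igkv10-95. In the 33 Igkv1-117 cells, 28 of 3269 V UMIs were given to Igkv1-110. The amount given to near neighbours was small beside that of the leading gene in these cells.

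The gated cells were checked against marker genes. Xbp1, the transcription factor of the secretory programme, was at 1421 CPM (UMIs of the gene per 1000000 UMIs) in replicate 1 and 1082 in replicate 2, against 207 and 145 in the other tagged cells. Sdc1 (CD138), a surface marker of plasma cells, was at 209 and 201 CPM against 39.9 and 35.1. The labelled cell type was not borne out in the gate: Il23r, the interleukin-23 receptor gene, was at 3.71 and 8.56 CPM, against 41.2 and 64.2 in the other cells. A list of 5 ILC3 genes (Il23r, Il22, Kit, Il1r1 and Ncr1) summed to 1.88 and 1.45 UMIs per 10000 against 14.5 and 20.7, with 5 and 4 of them having a UMI in the gate. Igha was the leading heavy chain constant gene in 353 of 358 cells with an assigned V gene in replicate 1 (98.6%, 96.8 to 99.5) and in 24 of 24 in replicate 2. Cxxc1 gave 73.6 and 51.3 CPM in the gated cells and 59.0 and 60.9 in the others. The floxed part of Cxxc1 is not given in the sources used here, so these UMIs do not check the deletion.

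A list of 5 stromal genes summed to 10.5 and 59.1 UMIs per 10000 in the gated cells (262 and 106 outside), and 6 T cell genes to 0.677 and 1.5 (7.49 and 23.6 outside). Each of these lists had a UMI of all its genes in the gated cells. At least 3 stromal UMIs were present in 80.7% and 44.4% of gated cells. The part of such RNA from other cells in the V gene values was not tested, apart from the V gene levels outside the gate given next. The tagged cells held 11939862 and 12141164 UMIs in all. No plasma cell index was shared by the replicates, although 7 cell indexes of the tagged cells were, and 2 of these were plasma cells of replicate 1.

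Nearly all light chain V UMIs lay in the gated cells. V genes took 1.45% of UMIs in the gated cells of replicate 1 and 1.43% in replicate 2, against 0.0118% and 0.00113% in the other cells. A gated cell held a median of 105 V UMIs in replicate 1 (quartiles 54.8 and 194.5) and 112 in replicate 2 (30.5 and 160). The median of the other cells was 0 in each replicate. Gated cells were also deeper, with medians of 9351 and 8670 UMIs against 3481 and 2261.

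A cell was assigned a dominant V gene when it held at least 10 V UMIs and its top gene had at least 50% of them. In replicate 1, 358 of 424 gated cells were assigned (84.4%, 80.6 to 87.8), and in replicate 2, 24 of 27 (88.9%, 70.8 to 97.6), a mean of 86.7% ± 3.15 (SD, n = 2). The top gene held a median of 84.9% of a cell's V UMIs in replicate 1 (quartiles 73.8% and 91.9%) and 91.4% in replicate 2 (78.4% and 96.5%). It held at least 80% in 222 of the 358 cells and in 16 of the 24. In most assigned cells of each replicate, 1 gene thus held over 80% of V UMIs.

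**Figure D1:**
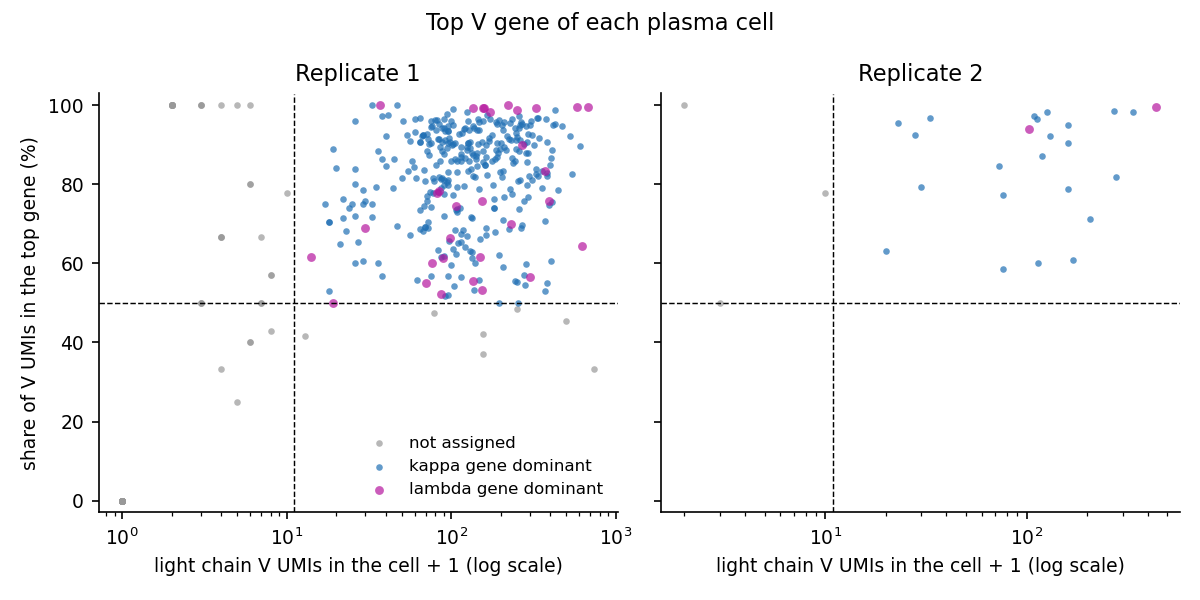
Each point is 1 plasma cell, with its light chain V UMIs plus 1 on a log axis and the percent of them in its top V gene on the other axis, replicate 1 on the left and replicate 2 on the right. Dashed lines mark the limits of 10 UMIs and 50%; 222 of 358 and 16 of 24 assigned cells (blue for kappa, purple for lambda) sit at 80% or above, and the unassigned cells (grey) lie mainly left of the UMI limit.

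Of the unassigned cells, 59 in replicate 1 and 3 in replicate 2 held fewer than 10 V UMIs, and 7 in replicate 1 held enough but had no gene with 50%. The cells short of V UMIs held fewer UMIs of other antibody genes as well. They had a median of 116 Igha UMIs in replicate 1 against 1317 in assigned cells, and of 45 against 1540 in replicate 2. Jchain, the joining chain of dimeric IgA, had medians of 20 and 8 against 499 and 513. Igkc had medians of 793 and 165 against 2506.5 and 2745. The depth of these cells was lower too, at medians of 3192 and 3627 UMIs against 9862 and 8692.5. Per 10000 UMIs, all unassigned cells held 2428 Igkc UMIs in replicate 1, near the 2516 of cells with a kappa V gene. In replicate 2 the values were 941 and 2952. Low V UMIs in replicate 1 thus did not go with a low Igkc share over the unassigned cells as a whole.

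The gate's limit runs through such cells. The 22 cells of replicate 1 and 3 of replicate 2 with exactly 3 gate UMIs had medians of 0 and 2 V UMIs. The 51 and 5 cells with 2 gate UMIs, just outside, had medians of 0 and 1. These are descriptions of the rule.

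Igkv10-96 was the most used gene. It was dominant in 53 of 358 cells in replicate 1 (14.8%, 11.3 to 18.9) and in 3 of 24 in replicate 2 (12.5%, 2.66 to 32.4), a mean of 13.7% ± 1.63 (SD, n = 2). Igkv1-117 followed with 33 cells (9.22%, 6.43 to 12.7) and 2 cells (8.33%, 1.03 to 27.0). The next places were held by Igkv12-46 and Iglv1, each with 26 cells in replicate 1 (7.26%, 4.8 to 10.5) and 1 cell in replicate 2 (4.17%, 0.105 to 21.1). Together the 4 leading genes of a replicate covered 38.5% of its cells in replicate 1 and 33.3% in replicate 2.

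The order below these genes is not resolved. Igkv3-2 had 4 cells (1.12%) and 2 cells (8.33%), Igkv1-135 had 13 (3.63%) and 1, and Igkv5-39 had 9 (2.51%) and 1. Igkv9-120, Igkv12-44 and Igkv4-91 had 7 cells each in replicate 1 and 1 each in replicate 2. Igkv5-43 had 6 and 1, while Igkv4-57-1, Igkv14-111 and Iglv2 had 5 and 1 each. Igkv17-127 and Igkv4-59 tied for the last of the 15 leading places, with 4 and 1 cells each. With 24 cells in replicate 2, 1 cell is 4.17%, so neighbours in this order differ by less than the counting error.

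**Figure D2:**
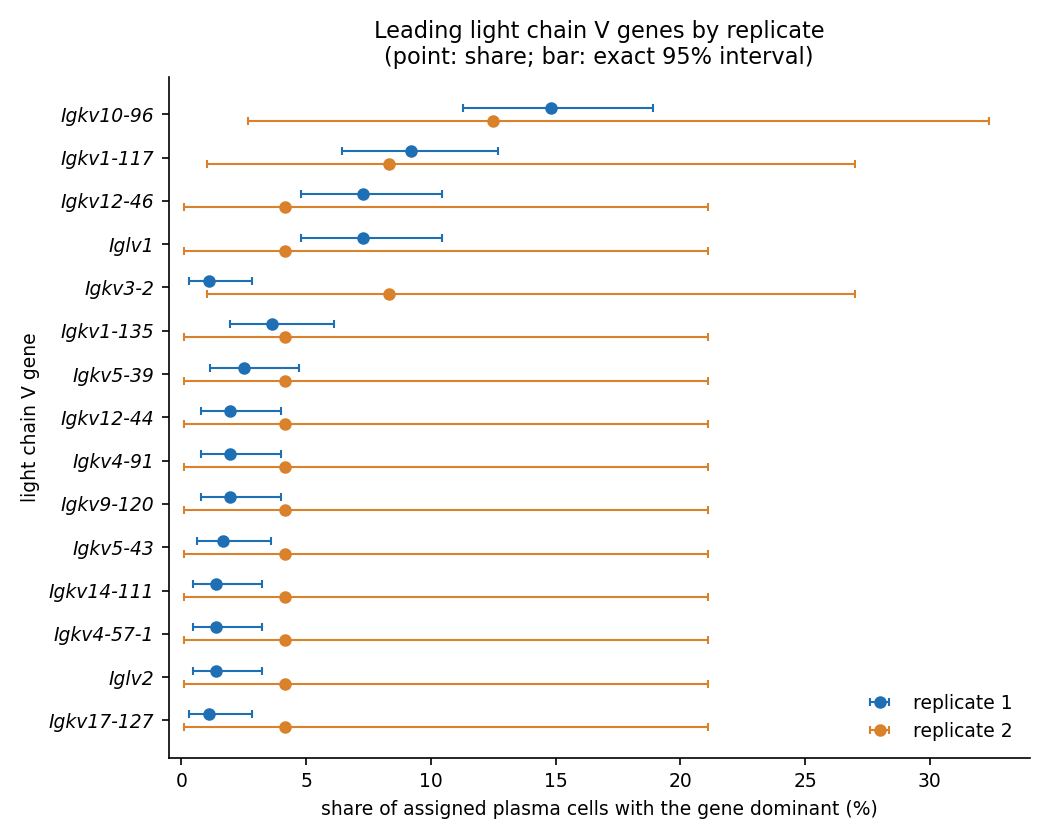
Share of assigned plasma cells (percent, horizontal axis) in which each of 15 leading light chain V genes was dominant, replicate 1 in blue and replicate 2 in orange, with exact 95% intervals as bars. Igkv10-96 leads in both replicates, and the intervals of replicate 2 are wide because they rest on 24 cells.

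The 5 largest differences in share between the replicates were in Igkv3-2, Igkv1-110, Igkv12-98, Igkv6-25 and Igkv9-124. Igkv1-110 was dominant in 15 cells of replicate 1 (4.19%, 2.36 to 6.82) and 0 of 24 in replicate 2, whose interval reaches 14.2%. Igkv12-98 was the reverse, with 0 of 358 cells (up to 1.03%) and 1 of 24. Igkv6-25 and Igkv9-124 had 1 cell in each replicate. The intervals of the replicates overlapped for each of the 5 genes.

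Usage was broad in both replicates. In replicate 1, 59 genes were dominant in at least 1 cell and 14 of them in 1 cell only, and in replicate 2, 20 genes were dominant and 17 of them in 1 cell. In all, 60 of the 147 genes were dominant somewhere and 87 nowhere. Of the 20 genes of replicate 2, 19 were also dominant in replicate 1, and these covered 23 of its 24 cells, while the genes of replicate 2 covered 219 of 358 cells (61.2%) of replicate 1. The Morisita-Horn overlap, which is 1 for identical usage and 0 for no gene in common, was 0.762 between the replicates.

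Diversity was measured as the effective number of genes (inverse Simpson), the number of equally used genes that would give the same chance of drawing a gene 2 times. It was 20.5 in replicate 1, where 3121 of 63903 pairs of cells shared their gene (4.88%). In replicate 2 it was 55.2, from 5 of 276 pairs (1.81%), so that value rests on 5 pairs. Rarefied to 24 cells, replicate 1 would hold 16.2 genes, against 20 found in replicate 2. With 2 replicates this difference has no test.

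By family, Igkv1 accounted for 17.3% of the assigned cells of replicate 1 (13.5 to 21.6) and for 12.5% of those of replicate 2 (2.66 to 32.4). Igkv10 made up 15.6% and 16.7%, although it has 3 genes in the table. Igkv4, the family with the most columns (33), made up 14.5% and 12.5%, spread over 15 dominant genes, and Igkv12 made up 10.1% and 12.5%. Igkv8 was dominant in 28 cells of replicate 1 (7.82%) and in 0 of 24 cells of replicate 2 (up to 14.2%). The Igkv11, Igkv18, Igkv20 and Igkv7 families were dominant in 0 cells of either replicate. Differences between the replicates in these families were within the counting intervals.

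The kappa V genes lie on chromosome 6 between Igkv2-137 and Igkv3-1, upstream of the J genes and Igkc. Ordered by position and divided into 3 equal groups of 33 functional genes, the group farthest from Igkj1 (1887 to 3166 kb away) held 157 of 325 kappa cells in replicate 1 (48.3%, 42.8 to 53.9). It held 13 of 22 in replicate 2 (59.1%, 36.4 to 79.3). The middle group held 32.3% and 27.3%, and the group nearest to the J genes (18.4 to 779 kb) held 19.4% (15.2 to 24.1) and 13.6% (2.91 to 34.9). Igkv10-96 and Igkv1-117 both lie in the far group. They held 53 and 33 of its 157 cells in replicate 1, and 3 and 2 of its 13 cells in replicate 2. Without these 2 genes the far group of replicate 1 would hold fewer cells than the 105 of the middle group. Its lead in replicate 1 thus rests on them. In replicate 2 it would still hold more than the 6 of the middle group. With all genes counted, the far group was the highest and the near group the lowest in each replicate. The intervals of the 3 groups do not overlap in replicate 1.

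Genes in the orientation of Igkc join by deletion of the DNA between, and genes in the opposite orientation by inversion. Those in the opposite orientation, 62 of 99 functional genes, held 216 of 325 cells in replicate 1 (66.5%, 61.0 to 71.6) and 12 of 22 in replicate 2 (54.5%, 32.2 to 75.6). Of 45 kappa genes annotated as pseudogenes, Igkv2-116 alone was dominant, in 2 cells of replicate 1. Pseudogenes thus made up 0.612% of kappa cells there (0.0742 to 2.19).

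**Figure D3:**
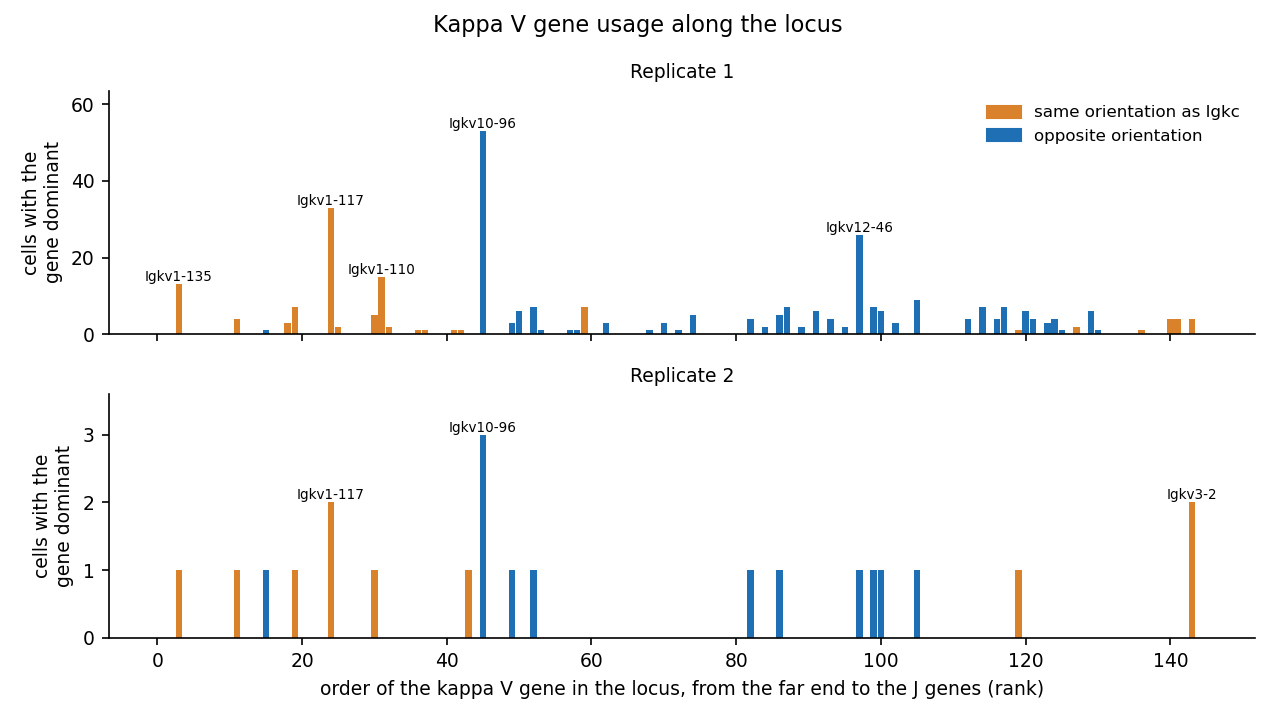
Number of plasma cells with each kappa V gene dominant (vertical axis) by the rank of the gene along the locus (horizontal axis), replicate 1 above and replicate 2 below, orange for genes in the orientation of Igkc and blue for the opposite. The tallest bars, Igkv10-96 with 53 cells and Igkv1-117 with 33, stand in the far part of the locus.

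A lambda V gene was dominant in 31 of 358 cells of replicate 1 (8.66%, 5.96 to 12.1) and 2 of 24 of replicate 2 (8.33%, 1.03 to 27.0), a mean of 8.5% ± 0.23 (SD, n = 2). These were 26 and 1 Iglv1 cells and 5 and 1 Iglv2 cells; Iglv3 was dominant in 0 cells. The constant genes, which the assignment did not use, were set against these calls. Cells with a kappa V gene had medians of 2548 and 2797.5 Igkc UMIs and of 17 and 17 UMIs summed over Iglc1 to Iglc4, and 0 of 327 and 0 of 22 held more lambda than kappa constant UMIs.

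Constant genes bore out the lambda calls in part of the cells only. Of the 26 Iglv1 cells in replicate 1, 10 had more lambda than kappa constant UMIs, with medians of 1254.5 against 39.5. A further 7 carried both, at medians of 1477 lambda and 1852 Igkc UMIs, and each of these 7 also held at least 10 UMIs of a kappa V gene. The remaining 9 had 3 to 19 lambda constant UMIs beside 1430 to 4416 Igkc UMIs, which is the pattern of cells with a kappa V gene. In those 9 cells Iglv1 held 8 to 170 UMIs and 50% to 74.5% of V UMIs, against 75.8% to 100% in the first 10. The classes were drawn after these values were seen.

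The Iglv2 cells were clearer: 4 of 5 in replicate 1 and the 1 in replicate 2 held more lambda than kappa constant UMIs. The 1 Iglv1 cell of replicate 2 had 1878 lambda constant UMIs against 20 of Igkc. Cells with a lambda V gene dominant and more lambda than kappa constant UMIs were 14 of 358 (3.91%, 2.15 to 6.47) in replicate 1 and 2 of 24 (8.33%) in replicate 2. In replicate 1 the lambda share thus moved by over 1.5 times with the definition.

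**Figure D4:**
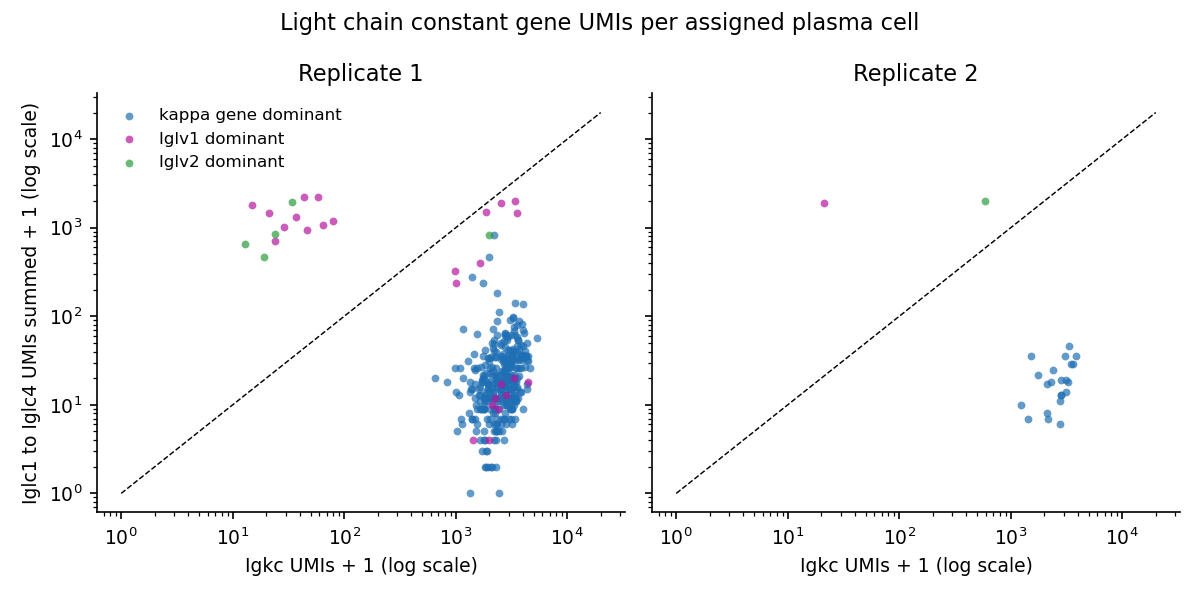
Each point is 1 assigned plasma cell, with Igkc UMIs plus 1 against Iglc1 to Iglc4 UMIs plus 1, both on log axes, coloured by the dominant V gene; the dashed line marks equality. In replicate 1 the Iglv1 cells fall into a group above the line (10 cells), a group high in both genes (7 cells) and a group within the cloud of kappa cells (9 cells).

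Most lambda constant UMIs of a lambda V class were of 1 gene. In the Iglv1 cells of replicate 1, 88.6% of lambda constant UMIs were Iglc1, and in the Iglv2 cells 97.6% were Iglc2. These sums are over cells: 23 of the 26 Iglv1 cells had an Iglc1 UMI, and 1 cell held 1770 of their 1820 Iglc3 UMIs. In replicate 2 the 1 Iglv1 cell had 99.9% Iglc1 and the 1 Iglv2 cell 93.3% Iglc2. Iglc1 and Iglc2 are the constant genes to which Iglv1 and Iglv2 are usually joined in mice.

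Iglv1 was also the most frequent V gene beside the dominant one. It had at least 1 UMI in 304 of 327 kappa cells in replicate 1 (93.0%) and in 20 of 22 in replicate 2 (90.9%), with means of 15.2 and 14.1 UMIs per cell. In the cells outside the gate 4.05% and 0.377% had a UMI, at means of 0.0762 and 0.00422; median depths of the kappa cells were 9854 and 8518.5 UMIs against 3481 and 2261. Per 10000 UMIs the level was 14.7 and 15.8 in kappa cells and 0.160 and 0.0160 outside the gate. Iglv1 made up 51.9% and 76.8% of all V UMIs that fell outside a cell's dominant gene.

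The ratio of Iglv1 to its constant gene set these cells apart. Kappa cells had 240 and 536 Iglv1 UMIs per 100 Iglc1 UMIs, against 24.0 and 23.3 in Iglv1 cells and 21.6 and 30.2 outside the gate. Their lambda constant UMIs were mostly Iglc2 (59.9% and 63.3%), with 21.6% and 13.9% Iglc1. Per 100 UMIs of all 4 lambda constant genes the values were 51.8 and 74.6 in kappa cells, 21.2 and 23.3 in Iglv1 cells and 11.3 and 7.28 outside the gate. Kappa cells had the highest ratio by either denominator, while how near the other two lay to each other depended on it. Iglv3 was likewise spread thinly, with a UMI in 136 of 327 and 10 of 22 kappa cells and means of 1.03 and 0.636. What produces Iglv1 UMIs in kappa cells was not tested.

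Apart from Iglv1, a kappa cell seldom held a further V gene in quantity. A gene beside the dominant one reached 20% of V UMIs in 96 cells of replicate 1 and 7 of replicate 2, and in 57 and 6 of these it was Iglv1. A further kappa gene reached 20% in 23 of 327 kappa cells (7.03%) and in 1 of 22 (4.55%). Cells that the pipeline called multiplets by their sample tags were left out, but wells that held 2 cells of the same tag were not removed.

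V genes differed in how many UMIs they gave for the same amount of constant gene. Over the 21 kappa genes with at least 5 cells in replicate 1, the dominant gene gave a median of 45.9 UMIs per 1000 Igkc UMIs. The lowest was Igkv13-84 at 11.1, then Igkv8-24 at 14 and Igkv8-30 at 16.9, and the highest was Igkv5-39 at 123, a range of 11-fold. Igkv10-96 was at 65.8 and Igkv1-117 at 34. A V UMI is therefore not the same measure of expression for each gene, and cells with low-yield genes reach 10 V UMIs and 50% less easily; the extent of that loss was not tested.

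Heavy chain V genes, assigned by the same rule, paired with the light chain in 302 cells of replicate 1 and 22 of replicate 2. The 302 cells held 215 combinations of light and heavy V gene, 179 of them in 1 cell. The most frequent was Igkv1-117 with Ighv8-5, in 19 cells, and Igkv10-96 with Ighv1-72 was next, in 12. All 22 combinations of replicate 2 were seen in 1 cell each, and both of these were among them.

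J genes differed within Igkv1-117. In the 19 cells with Ighv8-5, 36 of 43 Igkj UMIs were Igkj1 (83.7%). In the other 14 Igkv1-117 cells of replicate 1, 7 of 29 were Igkj1 (24.1%) and 13 were Igkj4 (44.8%). The 1 cell of replicate 2 with that combination had 1 Igkj UMI, which was Igkj1. The files hold no CDR3 sequences, so cells with the same combination were not shown to be of 1 clone.

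Repeated combinations carried part of the leading shares. Giving each combination the weight of 1 cell, Igkv10-96 made up 17 of 215 combinations in replicate 1 (7.91%), level with Iglv1 at 17, while Igkv1-117 made up 9 (4.19%). The effective number of genes in these 302 cells rose from 22.2 to 35.8.

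Cycling was gated by at least 3 UMIs over 15 cell cycle genes such as Mki67 and Top2a, which is a gate and no result. It held 130 of 424 plasma cells in replicate 1 (30.7%) and 2 of 27 in replicate 2 (7.41%), against 9.92% and 2.40% of the cells outside the plasma gate. Cycling cells of replicate 1 were deeper, at a median of 11579 UMIs against 8866. An assigned gene was found in 83.1% of cycling (75.5 to 89.1) and 85.0% of non-cycling cells (80.4 to 88.9), so the classes could be compared in replicate 1. In replicate 2 the class of 2 cells gives no usage.

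Most V genes of cycling plasma cells in replicate 1 were also found in non-cycling ones. The 108 assigned cycling cells used 40 genes, of which 34 were also dominant in a non-cycling cell, and those covered 100 of the 108 cells. Rarefied to 108 cells, the non-cycling cells would hold 39.8 genes. The effective number was 18.5 in cycling and 20.8 in non-cycling cells, and the Morisita-Horn overlap was 0.846. With the gate at 1 UMI the effective numbers were 21.0 and 18.3, so the order of the classes turned with the gate and no difference in diversity was resolved.

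Single genes differed modestly. Igkv10-96 was dominant in 13.9% of cycling (7.99 to 21.9) and 15.2% of non-cycling cells (11 to 20.3). Igkv1-117 was in 13.9% (7.99 to 21.9) and 7.20% (4.32 to 11.1), and 9 of its 15 cycling cells carried Ighv8-5. Igkv12-46 went the other way, with 3 cycling cells (2.78%, 0.577 to 7.90) and 23 non-cycling cells (9.20%, 5.92 to 13.5). Iglv1 was in 10.2% (5.20 to 17.5) and 6.00% (3.40 to 9.70), and Igkv1-135 in 1.85% and 4.40%. Igkv3-2 was dominant in 0 of 108 cycling cells (up to 3.36%) and 4 of 250 non-cycling cells (1.60%). Apart from Iglv1, these were also the genes with the largest mean difference over the replicates, a ranking that the 2 cycling cells of replicate 2 inflate. The intervals of each gene overlapped.

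**Figure D5:**
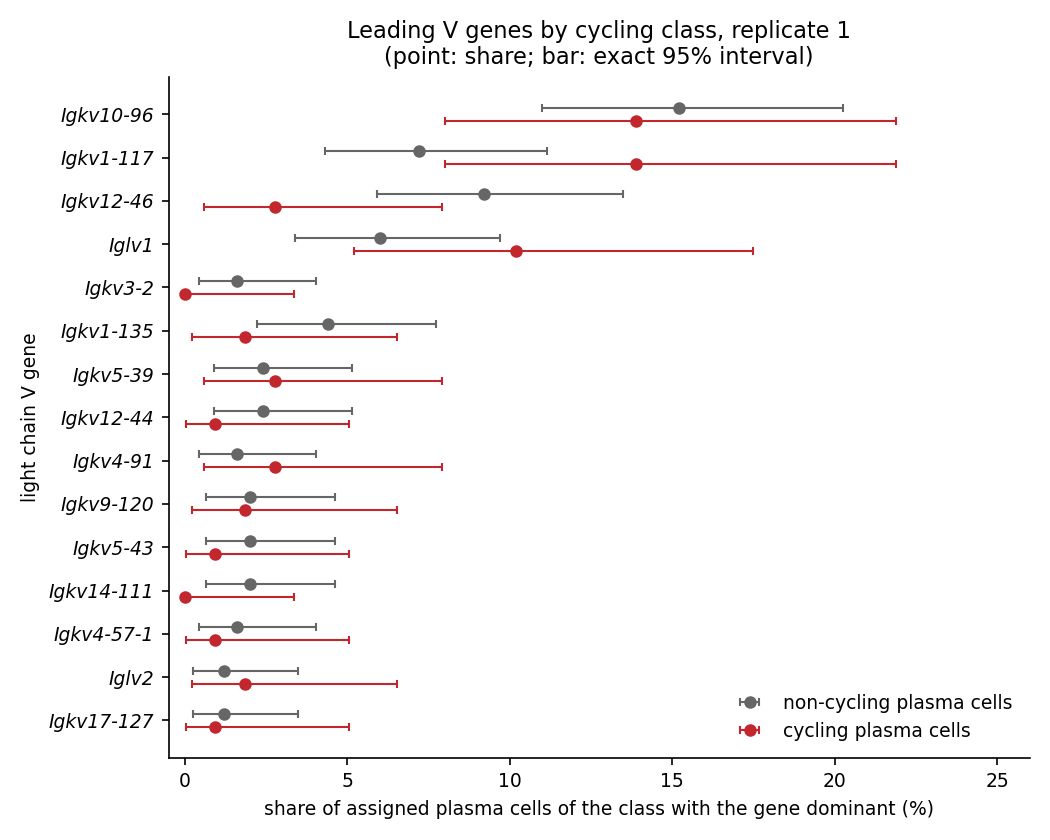
Share of assigned plasma cells of replicate 1 (percent, horizontal axis) with each of the 15 leading V genes dominant, cycling cells in red and non-cycling cells in grey, with exact 95% intervals as bars. The intervals overlap for each gene; Igkv1-117 is higher and Igkv12-46 lower in cycling cells.

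Lambda genes were dominant in 12% of cycling cells (6.57 to 19.7) and 7.20% of non-cycling cells (4.32 to 11.1) in replicate 1. The combination of Igkv1-117 with Ighv8-5 was cycling in 9 of 19 cells, and that of Igkv10-96 with Ighv1-72 in 0 of 12. The 1 cell of replicate 2 with the first combination was cycling and the 1 with the second was not.

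The amount of V mRNA was lower in cycling cells. Light chain V genes took 81.7 of 10000 UMIs in cycling and 182 in non-cycling plasma cells of replicate 1, and 25.7 and 155 in replicate 2. Igkc took 1555 and 2920 in replicate 1 and 1607 and 2667 in replicate 2. V UMIs per 1000 Igkc UMIs were 52.5 and 62.3 in replicate 1, and 16.0 and 58.0 in replicate 2, where the cycling value rests on 2 cells. With the gate at 1 UMI they were 58.9 and 61.3 in replicate 1 and 45.2 and 57.7 in replicate 2. Each of these quantities was lower in the cycling class of each replicate.

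A test needed at least 5 cells in each sum, which the gate of 3 UMIs did not give, so the gate of 1 UMI was used. It gave 247 cycling and 177 non-cycling cells in replicate 1 and 6 and 21 in replicate 2. This gate is looser. It called 58.25% and 22.22% of plasma cells cycling, and 29.04% and 14.96% of the cells outside the plasma gate. The cycling class was also deeper, with medians of 10192 against 8422 UMIs in replicate 1 and 8885 against 8367 in replicate 2. A cell in that class may hold a single UMI of the cell cycle genes. Summed over the V genes, the level was 12024 CPM in cycling and 17832 in non-cycling cells of replicate 1, and 8408 and 16032 in replicate 2, or log2 differences of -0.57 and -0.93. These sums are plain CPM. The CPM of single genes given below for the fit also carry its scaling factors (TMM) and are called scaled CPM. The 2 kinds of level, and their log2 differences, are not comparable in size. The fit (edgeR, quasi-likelihood, replicate as a block) called 35 of 6087 genes, or 0.575%, with 0.378% (23 genes) higher and 0.197% (12 genes) lower in cycling cells. Of the genes that rose, most are in the cycling list, which the gate used. With immunoglobulin genes left out of the library sizes, 96 genes were higher and 108 lower. Whether different animals gave the 2 replicates is not stated in the labels, so p-values measure only the spread between these samples, which may be technical. With 1 residual and a median of 7.85 prior degrees of freedom, the variance of each gene is drawn mostly from other genes. That variance does not measure the spread among the few cells that use a V gene.

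Of the 112 V genes in both tables, 43 passed the filter on low counts, and 1 of them rose and 5 fell in cycling cells. A V gene sum rests on the few cells that use the gene, so the cells are given with each. In replicate 2, 5 of the 6 cycling and 19 of the 21 non-cycling cells had an assigned gene. A gene dominant in none of those 5 cells is near 0 in that cycling sum. A fall in replicate 2 thus follows largely from the cell number. Igkv14-111, Igkv6-25, Igkv17-127 and Igkv3-2 had 0 UMIs in that sum. Igkv10-96 fell: it was at 1327 scaled CPM in cycling and 4627 in non-cycling cells of replicate 1, and at 470 and 2911 in replicate 2. The log2 difference was -2.19 ± 0.29 (SE, adjusted p = 0.0125, edgeR). It was dominant in 26 of 247 cycling and 27 of 177 non-cycling cells of replicate 1, and in 1 of 6 and 2 of 21 of replicate 2. This was the 1 called gene with more than 7 dominant cells in either class.

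Igkv14-111 fell by 6.77 ± 0.52 on the log2 scale (adjusted p = 0.00133, edgeR), with 13 and 503 UMIs in replicate 1 and 0 and 108 in replicate 2. It was dominant in 0 cycling and 5 non-cycling cells of replicate 1 and 0 and 1 of replicate 2. Igkv8-27 rose by 4.73 ± 0.60 (adjusted p = 0.0125, edgeR), with 606 and 9 UMIs in replicate 1 and 1 and 0 in replicate 2. It was dominant in 7 cycling and 0 non-cycling cells, all in replicate 1. In replicate 2 it was near 0 in both classes, so the rise rests on replicate 1. With the gate at 3 UMIs, which leaves 2 cycling cells in replicate 2, its log2 difference was -1.01 (adjusted p = 0.476, edgeR).

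Igkv17-127 and Igkv3-2 fell, with log2 differences of -4.22 ± 0.61 (adjusted p = 0.0207, edgeR) and -4.24 ± 0.71 (adjusted p = 0.0404, edgeR). Each was dominant in 1 cycling and 3 non-cycling cells of replicate 1. In replicate 2 they were dominant in 0 cycling and in 1 and 2 non-cycling cells. Igkv6-25 had 0 UMIs in cycling cells of either replicate and 68 and 12 UMIs in non-cycling cells, with 98.5% and 100% of these from 1 cell in each replicate (adjusted p = 0.0125, edgeR). Its call thus rests on those single cells. Igkv6-25 and Igkv14-111 passed the filter on low counts only through the non-cycling class, where they are high. Igkv17-127 and Igkv3-2 had 0 UMIs in the cycling sum of replicate 2, so the cycling class alone could not pass them either. Igkv8-27 passed only through the cycling class, where it is high. The filter and the test thus draw on the same values for these genes, so their calls are no separate support for a difference. DESeq2 called 3 V genes, Igkv14-111, Igkv8-27 and Igkv10-96, where it called 1.07% of all genes. Without the replicate block edgeR called 2, Igkv14-111 and Igkv6-25, and 0.312% of all genes. The gates of 3 and 6 UMIs in the counts below leave 2 cycling cells in replicate 2, fewer than the 5 set for a sum. The count of V genes called was 21 with immunoglobulin genes out of the library sizes (3.35% of all genes), 29 without the filter on low counts (0.887%), 6 with relative log expression factors (0.591%), 22 at a cycling gate of 3 UMIs (4.8%) and 20 at a gate of 6 (4.69%).

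Among the light chain constant genes, Igkc fell, from 384519 to 186572 scaled CPM in replicate 1 and from 351817 to 144360 in replicate 2. Without the scaling, Igkc took 3002 of 10000 UMIs in non-cycling and 2079 in cycling cells of replicate 1, and 2779 and 1862 in replicate 2. The log2 difference of Igkc in the fit was -1.16 ± 0.15 (adjusted p = 0.0125, edgeR). With the gate at 3 UMIs it was -1.73, and the adjusted p was 0.638 (edgeR). Iglc1 was at -2.88 ± 1.42 (adjusted p = 0.770, edgeR), Iglc2 at 1.58 ± 1.22 (0.932) and Iglc3 at 1.15 ± 0.41 (0.492), and none of these passed the test at this gate. With the gate at 3 UMIs the log2 differences were -3.19, -3.06 and -2.77, so Iglc2 and Iglc3 turned their direction. All 3 passed there (adjusted p of 0.00284, 0.000259 and 1.92e-06, edgeR). The gate of 3 UMIs leaves 2 cycling cells in replicate 2, fewer than the 5 set for a sum. No p-value at that gate therefore supports a call. With immunoglobulin genes out of the library sizes, Iglc1 was at -2.90, Iglc2 at 1.56 and Iglc3 at 1.13, and all 3 passed (adjusted p of 8.33e-07, 0.0101 and 0.00802, edgeR). The direction of Iglc2 and Iglc3 thus turned with the gate. These sums rest on few cells. At the gate of 1 UMI, the 1 Iglv1 cell of replicate 2 held 1877 of 1926 Iglc1 UMIs of the non-cycling sum. The 1 Iglv2 cell there held 1864 of 1919 Iglc2 UMIs of the cycling sum. In replicate 1, 1 cell held 1770 of 3235 Iglc3 UMIs of the cycling sum. Iglc1 was at 5477 and 5461 scaled CPM in cycling and non-cycling cells of replicate 1, and Iglc2 at 2171 and 4484. Iglc4 was not tested because of its low counts. The median log2 difference over all genes tested was -0.06 and over the V genes tested -1.17; the V genes that passed the filter are not all members.

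Of 24 regulators of light chain transcription and recombination, 16 were tested and 0 passed with edgeR, 1 of them with an unadjusted p under 0.05. That gene was Xbp1, at 1156 and 2122 scaled CPM in cycling and non-cycling cells of replicate 1 and 573 and 1497 in replicate 2 (log2 -1.12 ± 0.27, adjusted p = 0.155 with edgeR and 0.00752 with DESeq2). Xbp1 also passed with edgeR when immunoglobulin genes were out of the library sizes (adjusted p = 0.00218). At a cycling gate of 3 UMIs its adjusted p was 0.00766 (edgeR). That gate leaves 2 cycling cells in replicate 2, fewer than the 5 set for a sum, so it adds no support. Ell2, an elongation factor that favours secretory immunoglobulin mRNA, was at -0.96 ± 0.43 (adjusted p = 0.704, edgeR). Irf4 and Prdm1, transcription factors of plasma cell identity, were at -0.43 ± 0.37 and -0.47 ± 0.35. Ebf1, an early B cell factor, was at -1.23 ± 0.61, and Irf8 was at -0.85 ± 0.46. Nfkb1 was at 0.40 ± 0.45 and Ikzf3 at -0.45 ± 0.51.

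Markers of B cells moved with the cycling class in replicate 1. A list of 7 B cell genes, all 7 with a UMI, summed to 2.47 UMIs per 10000 in cycling (gate of 3 UMIs) and 1.40 in non-cycling plasma cells, and at least 3 UMIs were present in 43.1% and 12.2% of cells. In replicate 2 the sums were 1.90 and 1.46 per 10000, from 3 of the 7 genes, with Pax5 at 0, and at least 3 UMIs were present in 0% of the 2 cycling and 16% of the 25 non-cycling cells. Their part in the lower V level of cycling cells was not tested.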

How the data were processed

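Single cells were captured on a BD Rhapsody system. The deposited tables hold whole-number molecule counts per cell and gene after the pipeline's UMI correction, made with the BD WTA Multiplex Rhapsody Analysis Pipeline 1.8, per the file headers. The submitters' processing notes name HISAT2 2.0.5, Bowtie2, mm10 and GRCm38.p6 without their roles. Sample tag calls were deposited by the authors as other values, 1 name per cell. Tagged cells of replicates 1 and 2 were kept, with medians of 4027 and 2269 counts, and multiplets, undetermined cells and other tags were left out.

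Shares carry exact Clopper-Pearson 95% intervals. Counts were summed per replicate and class and tested with edgeR 4.0.16 in R 4.3.3 (quasi-likelihood, TMM, filterByExpr, Benjamini-Hochberg, two-sided, adjusted p under 0.05, 1 residual degree of freedom), with the replicate as a block because both classes of a replicate come from the same capture. The planned cycling gate of 3 UMIs left 2 cells in replicate 2, too few for a sum, so a gate of 1 UMI was used. DESeq2 1.42.0 was an alternative, with other gates, limits, scalings, filters and cell selections. On simulated data, 9% of 2-fold and 55% of 4-fold changes were recovered for this comparison (5705 genes). The changes were set in 200 genes at 50 CPM or more, with the spread taken from the trend over genes. Recovery for V genes whose sums rest on few cells was not tested.

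The text names the 15 V genes with the highest mean share, lambda genes dominant in a cell, V genes past the threshold, the 5 largest differences between replicates and between classes, constant genes and 8 regulators by p. Gene families, locus groups, V yields and V pairs were added after the data were seen. The members and lists were chosen with earlier results of these data known. Sequences and positions come from GENCODE vM21. One item of the strain and of the ILC3 marker list is not reported here.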

Additional observations from a re-analysis of the deposited data

Results flagged for a closer look

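Some cells outside the plasma gate carried a dominant light chain V gene. There were 8 among 1653 such cells of replicate 1 (0.484%, exact 95% interval 0.209 to 0.951), with 10 to 131 V UMIs, a median of 845.5 Igha UMIs and 8 different genes. The limit that a count of 0 allows is 0.181% there. Of these 8 cells, 6 had 2 gate UMIs, just under the limit. In replicate 2 there were 2 among 4505 cells (0.0444%, 0.00538 to 0.160), where a count of 0 would allow 0.0666%. A limit for a count of 0 does not test an observed count.

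Heavy chain V genes were outside the light chain measurement, and 18 of 215 pairings were in 3 or more cells of replicate 1. The 7 in at least 4 cells are named here. Igkv1-117 with Ighv8-5 was in 19 cells and Igkv10-96 with Ighv1-72 in 12 cells. Igkv10-96 with Ighv1-55, Igkv10-96 with Ighv1-64 and Igkv12-46 with Ighv1-72 were in 5 cells each. Igkv12-46 with Ighv2-6-8 and Igkv4-53 with Ighv5-6 were in 4 cells each. In the cells of Igkv10-96 with Ighv1-55, 20 of 21 Igkj UMIs were Igkj2, and in those of Igkv4-53 with Ighv5-6, 10 of 10 were Igkj4. Other pairings held several J genes: Igkv10-96 with Ighv1-64 had 13 UMIs of Igkj1, 8 of Igkj2 and 3 of Igkj4, and Igkv12-46 with Ighv1-72 had 5 of Igkj1, 7 of Igkj2 and 3 of Igkj3. Whether the cells of a pairing are 1 clone was not tested.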

How the results depend on the processing

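Of 159 values under alternatives, 115 kept their direction and side of the threshold or moved by less than the replicate spread. That count includes values with 1 replicate left out, which are kept by construction: with 2 replicates each lies within their SD of the mean. The effective number has an SD of 24.6 on a mean of 37.8, so it seldom counts as moved. The count is therefore no measure of robustness. The assigned share (86.7%) was 72.3% at 50 V UMIs, 55.8% with the top gene at 80%, 96.8% at a plasma gate of 6 UMIs and 79.6% without cells with markers of other types, a filter that leaves 27 of 424 and 4 of 27 cells. The lambda share (8.5%) was 9.55%, 8.95%, 6.92% and 3.13% in the same order. It was 9.20% with each heavy and light combination counted 1 time, and 6.12% where lambda constant UMIs had to exceed kappa, both chosen after seeing the data. The share of the most used gene (13.7%) was 15.7% with the top gene at 80%, 9.38% without cells with other markers and 8.5% with each combination counted 1 time. The effective number, a mean of 37.8, was 68.8 with the top gene at 80%, and the filter on other markers gave no value in replicate 2. Leaving out each replicate in turn gave 84.4% to 88.9% assigned, 8.33% to 8.66% lambda, 12.5% to 14.8% for the most used gene and an effective number of 20.5 to 55.2. The summed V difference was then -0.93 to -0.57 (log2), and no count of calls could be made from 1 sum a class.

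The counts of called genes (35 of all genes and 6 V genes with edgeR) depended on the fit. They were 19 and 2 without the replicate block, 204 and 21 with immunoglobulin genes out of the library sizes, 136 and 29 without the filter, 293 and 22 at a cycling gate of 3 UMIs (chosen after seeing the data; 2 cells in a sum) and 274 and 20 at a gate of 6. DESeq2 gave 40 and 3, and relative log expression factors 36 and 6. At the gate of 3 UMIs, Igkv8-27 turned to -1.01, Iglc2 to -3.06, Iglc3 to -2.77 and Nfkb1 to -0.39. Igkv8-27, Igkv10-96, Igkv17-127 and Igkv3-2 lost their call without the replicate block, with adjusted p of 0.206, 0.220, 0.0519 and 0.0672 (edgeR). The causes were not tested. The number of cells limits replicate 2, where 24 assigned cells allow a share of up to 14.2% for a gene seen in 0 cells.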

Other observations

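UMIs of the kappa J genes were spread unequally. They are sums over cells and give no J gene per cell. Repeated combinations weigh on them. Of 262 Igkj1 UMIs in replicate 1, 36 came from the 19 cells of Igkv1-117 with Ighv8-5. A further 25 came from the 12 cells of Igkv10-96 with Ighv1-72. In replicate 1, 248 assigned cells held 629 Igkj UMIs, of which 41.7% were Igkj1, 35.0% Igkj2, 14% Igkj4, 8.43% Igkj5 and 0.954% Igkj3. Igkj3 carries a defective splice signal in mice and is normally not used in kappa chains. In replicate 2 the 22 Igkj UMIs were 15 of Igkj1, 6 of Igkj2 and 1 of Igkj4.

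Among the assigned cells of replicate 1 whose leading heavy chain constant gene was not Igha, 2 had Ighm, 2 had Ighg2b and 1 had Ighg1. Gated cells without an assigned V gene held 5 cells with more lambda than kappa constant UMIs in replicate 1.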
